A study of Mus musculus with 45 samples.

Results

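The genes described here are 10 targets of the hypoxia response, chosen by name from the 35372 genes counted. They are Egln3, Bnip3, Pdk1, Slc2a1, Car9, Vegfa, Adm, Ankrd37, Ndrg1 and Hilpda, and each was found once in the counts by its gene symbol. Male wild-type E14tg2a mouse ESCs, a line of 129/Ola origin, were kept either in 2iL (serum-free N2B27 medium with the Gsk3 inhibitor CHIR99021, the Mek inhibitor PD0325901 and LIF) or in SL (serum with LIF) and were then differentiated in 3 conditions. In the EB condition the cells floated in low-attachment dishes in serum without LIF and formed embryoid bodies. In FA (labelled EpiSC) they grew attached to gelatin in N2B27 with Fgf2 and Activin A, and in N2B27 (labelled Neural) they grew attached to gelatin in the serum-free medium alone. RNA without ribosomal RNA was sequenced by strand on days 0, 1, 1.5, 2, 2.5, 3, 5 and 7, with 1 library for each starting medium, condition and day. The 45 libraries include a single SL library for day 0, which precedes all 3 conditions, and day 5 of FA from 2iL was not analysed here.

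Cells sense low oxygen through prolyl hydroxylases of the Egln family, which use oxygen to mark the Hif alpha subunits for destruction by the Vhl ubiquitin ligase. When oxygen is scarce the alpha subunits persist, pair with Arnt, bind short motifs near their target genes and raise genes for glucose uptake, glycolysis, removal of mitochondria, pH control and blood vessel growth. Several of these targets also respond to growth factors, to nutrient stress or to other regulators.

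Libraries held between 13093226 and 39804240 counts on genes, with a median of 18222720. The 8 EB libraries from 2iL were deeper than most of the rest, with a median of 34490692 counts against 17297450 in the other 37. The EB library from SL at day 2 was as deep, with 37071102 counts. Levels are given as CPM, the count scaled to the library total, and 3 counts correspond to between 0.0754 and 0.229 CPM depending on depth, for counting error only. EB cultures were compared with the mean of FA and N2B27 within each starting medium and day in an edgeR quasi-likelihood model of the 41 libraries from day 1 on. A gene was called where its p-value, after Benjamini-Hochberg adjustment for the 16946 genes tested, was under 0.05, and all 10 genes passed the filter on low counts. All values of a difference are EB minus adherent on the log2 scale, with the standard error. EB cultures differ from FA and N2B27 in suspension, in serum and in the dish at once, and the parts of these in a difference cannot be told apart. The labels do not say which libraries come from separate cultures. The p-values therefore measure the spread between these libraries, and the 6 time courses were also compared as 6 single units. In bulk RNA, fewer cells that express a gene and less RNA per cell cannot be told apart.

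The sequences before the RefSeq start of 6 of these genes are shown because the genes fall into those that were called higher in EBs at days 1 to 2 (Bnip3, Egln3, Ankrd37 and Adm) and those called lower (Vegfa and Car9). Each is the 250 bases before the RefSeq transcription start on GRCm38.p6, written 5′ to 3′ on the strand of the gene. Capitals mark the core letters of the motif that Hif binds, ACGTG or GCGTG, on either strand (CACGT or CACGC on the other strand), and matches that overlap are counted separately.
Bnip3, chr7:138909507-138909756, minus strand: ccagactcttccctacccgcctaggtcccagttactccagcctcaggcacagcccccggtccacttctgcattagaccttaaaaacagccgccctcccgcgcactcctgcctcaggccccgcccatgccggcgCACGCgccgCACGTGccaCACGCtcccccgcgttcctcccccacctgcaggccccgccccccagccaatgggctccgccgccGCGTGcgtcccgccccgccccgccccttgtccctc
Egln3, chr12:54203875-54204124, minus strand: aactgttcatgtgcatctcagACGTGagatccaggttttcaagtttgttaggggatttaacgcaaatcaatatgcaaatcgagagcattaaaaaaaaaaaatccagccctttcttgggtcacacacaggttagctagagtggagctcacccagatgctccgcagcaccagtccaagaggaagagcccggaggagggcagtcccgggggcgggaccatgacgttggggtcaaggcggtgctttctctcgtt
Ankrd37, chr8:45999851-46000100, minus strand: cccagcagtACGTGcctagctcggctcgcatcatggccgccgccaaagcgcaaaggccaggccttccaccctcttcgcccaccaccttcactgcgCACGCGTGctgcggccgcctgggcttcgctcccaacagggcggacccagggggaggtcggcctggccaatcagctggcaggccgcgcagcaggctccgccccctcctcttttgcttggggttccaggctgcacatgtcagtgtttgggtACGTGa
Adm, chr7:110627407-110627656, plus strand: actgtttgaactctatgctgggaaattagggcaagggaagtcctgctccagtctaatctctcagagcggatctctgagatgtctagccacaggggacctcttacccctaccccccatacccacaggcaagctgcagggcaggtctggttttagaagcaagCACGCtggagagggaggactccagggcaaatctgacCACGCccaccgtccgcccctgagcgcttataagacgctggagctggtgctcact
Vegfa, chr17:46032378-46032627, minus strand: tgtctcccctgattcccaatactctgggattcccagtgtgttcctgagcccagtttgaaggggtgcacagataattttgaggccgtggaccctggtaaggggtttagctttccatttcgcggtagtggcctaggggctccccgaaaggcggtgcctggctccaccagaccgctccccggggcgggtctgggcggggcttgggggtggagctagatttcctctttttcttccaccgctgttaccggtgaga
Car9, chr4:43506776-43507025, plus strand: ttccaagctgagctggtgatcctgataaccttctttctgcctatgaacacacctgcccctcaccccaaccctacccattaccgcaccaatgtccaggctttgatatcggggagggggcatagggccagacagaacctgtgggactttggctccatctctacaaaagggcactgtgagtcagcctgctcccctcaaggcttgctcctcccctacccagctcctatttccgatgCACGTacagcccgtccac

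Of the 9 genes with an entry in the promoter table, 7 held at least 1 match in these 250 bases, against 38.6% of 32851 windows of the same length. Bnip3 held 5 matches, Ankrd37 4, Adm and Slc2a1 2 each, and Egln3, Car9 and Pdk1 1 each, while Vegfa and Hilpda held 0 in the window. Ndrg1 has no entry. Windows with at least 3 matches made up 6.58% of all. A match is a run of letters and not a site, and Hif sites can lie far outside such a window, so the matches are a description of the sequence alone. The GENCODE models of Bnip3, Car9, Slc2a1 and Ankrd37 begin upstream of the RefSeq start. The windows of Bnip3, Car9 and Slc2a1 therefore lie in part inside the annotated gene, and that of Ankrd37 lies wholly inside it.

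At days 1 to 2, 5 of the 10 genes were called higher in EBs, 2 were called lower and 3 were not called. Among all genes tested 33.8% were called in that comparison, 18.5% as higher and 15.2% as lower. Egln3, Bnip3, Ndrg1, Adm and Ankrd37 were higher, and Vegfa and Car9 were lower. The median difference over the 10 genes was 0.47, against 0.01 over all genes tested. Over the 12 alternative fits of this window, 3 to 6 of the 10 genes were called. The number was 3 without 2iL FA, without 2iL N2B27 and with 1 value per time course. In these fits 22.5%, 18.7% and 11.5% of all genes were called. At days 2.5 and 3, Bnip3, Ndrg1 and Pdk1 were called higher and Vegfa and Car9 lower, where 38.7% of all genes were called, 19.3% as higher and 19.4% as lower. At days 5 and 7, only Slc2a1 was called higher and only Car9 lower, where 34.3% of all genes were called, 17.0% as higher and 17.3% as lower. The number of the 10 genes called in the last window rested on the EB time courses used, since 6 of them were called without 2iL EB, where 27.6% of all genes were, and 6 without SL EB, where 34.3% were. At days 2.5 and 3, 4 of the 10 were called without SL EB and 3 without SL FA, where 41.4% and 31.7% of all genes were.

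**Figure D1:**
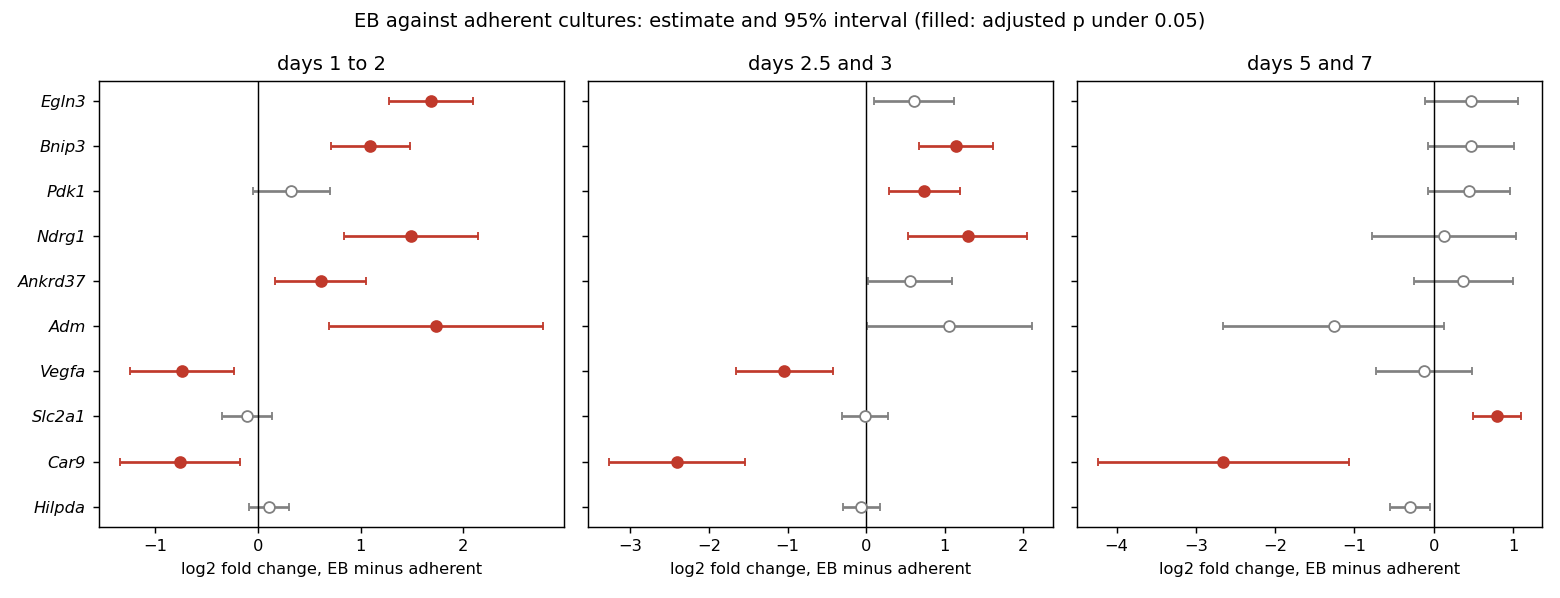
Difference of EB from the mean of the adherent cultures FA and N2B27 for each of the 10 genes, in log2 units on the horizontal axis, in 3 windows of days. Points are estimates of the edgeR model, bars are 95% intervals, and filled points have an adjusted p under 0.05. Egln3, Bnip3, Ndrg1, Ankrd37 and Adm lie to the right at days 1 to 2, and Slc2a1 is the only filled point to the right at days 5 and 7.

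On GRCm38, GENCODE places Egln3 (ENSMUSG00000035105) on chromosome 12 from 54178981 to 54203860 (minus strand). It is a prolyl hydroxylase that acts on the Hif alpha subunits and is itself a Hif target, so that it forms a feedback loop. At days 1, 1.5 and 2 it was at 29.0, 43.7 and 31.6 CPM in EBs from 2iL and at 26.7, 44.8 and 36.6 CPM in EBs from SL. The 12 adherent libraries of these days lay between 7.41 and 19.5 CPM, with a median of 10.5. All 6 EB libraries were therefore above all 12 adherent libraries, an order that 1.19% of the genes tested showed. The difference was 1.69 ± 0.19, or 3.22-fold (adjusted p = 5.4e-06). On single days, 5.67%, 13.5%, 17.9%, 17.9%, 27.4%, 23.4% and 19.2% of all genes were called at days 1, 1.5, 2, 2.5, 3, 5 and 7. The Egln3 difference was called on each of the first 3, at 1.59 on day 1, 2.00 on day 1.5 and 1.47 on day 2 (adjusted p = 0.0092, 0.00093 and 0.0057).

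On days 2.5 and 3 the levels of Egln3 split by starting medium. EBs from SL were at 61.4 and 55.9 CPM, the highest of all libraries, while EBs from 2iL were at 29.6 and 22.4 CPM. FA and N2B27 cultures were at 15.6 to 37.2 CPM and overlapped with the EBs from 2iL. The difference was 0.61 ± 0.24 (adjusted p = 0.055). It was 1.11 with the 2iL EB time course left out and 0.05 with the SL EB time course left out. Over days 5 and 7 EBs were at 11.3 to 21.7 CPM and adherent cultures at 5.16 to 25.0 CPM, and the difference was 0.47 ± 0.28 (adjusted p = 0.21). Without the SL EB time course it was 1.34 and called (adjusted p = 0.0013), and without the 2iL EB time course it was -0.23.

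Bnip3 and Pdk1 act on mitochondria. The annotation has Bnip3 (ENSMUSG00000078566) on chromosome 7 from 138890836 to 138909519 (minus strand) and Pdk1 (ENSMUSG00000006494) on chromosome 2 from 71873224 to 71903858 (plus strand). Bnip3 is a receptor on the outer mitochondrial membrane that directs mitochondria to autophagy, and Pdk1 is a kinase that inactivates pyruvate dehydrogenase and so keeps pyruvate out of the citric acid cycle. At days 1, 1.5 and 2 Bnip3 was at 110, 181 and 134 CPM in EBs from 2iL and at 99.9, 153 and 160 CPM in EBs from SL. Adherent cultures were at 28.9 to 104 CPM, with a median of 67.7. The ranges overlapped only because FA from 2iL reached 104 CPM at day 2 and EBs from SL were at 99.9 CPM at day 1, and EBs were the highest of the 3 conditions in all 6 pairs of medium and day. The difference was 1.09 ± 0.18 (adjusted p = 0.00020).

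Bnip3 was again highest in EBs in all 4 pairs of medium and day at days 2.5 and 3. EBs from 2iL were at 156 and 118 CPM, and those from SL at 208 and 258 CPM, against 47.0 to 125 CPM in the 8 adherent libraries. The difference was 1.15 ± 0.22 (adjusted p = 0.00062). By days 5 and 7 the level in EBs was 65.3 to 89.0 CPM and lay within the range of the adherent cultures, 23.4 to 120 CPM. The difference was then 0.47 ± 0.26 (adjusted p = 0.17). On single days it was 1.13 at day 5 and -0.19 at day 7 (adjusted p = 0.0505 and 0.74), and at day 5 the FA value comes from SL alone.

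Pdk1 differed between the starting media at the outset, before any condition was applied. At day 0 it was at 28.6, 41.1 and 27.4 CPM in the 3 libraries from 2iL and at 233 CPM in the library from SL. By day 1 all 6 cultures were at 177 to 305 CPM. EBs were at 249 to 305 CPM over days 1 to 2 and adherent cultures at 161 to 339 CPM, and the difference was 0.33 ± 0.18 (adjusted p = 0.18). FA from 2iL was the highest at days 1.5 and 2, with 339 and 317 CPM. At days 2.5 and 3 EBs stayed at 249 to 317 CPM, while N2B27 cultures were at 81.4 to 185 CPM and FA cultures at 167 to 291 CPM. The difference was 0.74 ± 0.22 (adjusted p = 0.012), which consisted of 0.45 against FA and 1.04 against N2B27 (adjusted p = 0.21 and 0.0043). The call was lost in 4 of the 12 alternatives, with 1 value per time course and without 2iL N2B27, SL EB or SL FA (highest adjusted p = 0.078). At days 5 and 7 Pdk1 was at 76.7 to 171 CPM in EBs and at 33.6 to 111 CPM in adherent cultures, a difference of 0.44 ± 0.25 (adjusted p = 0.18).

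**Figure D2:**
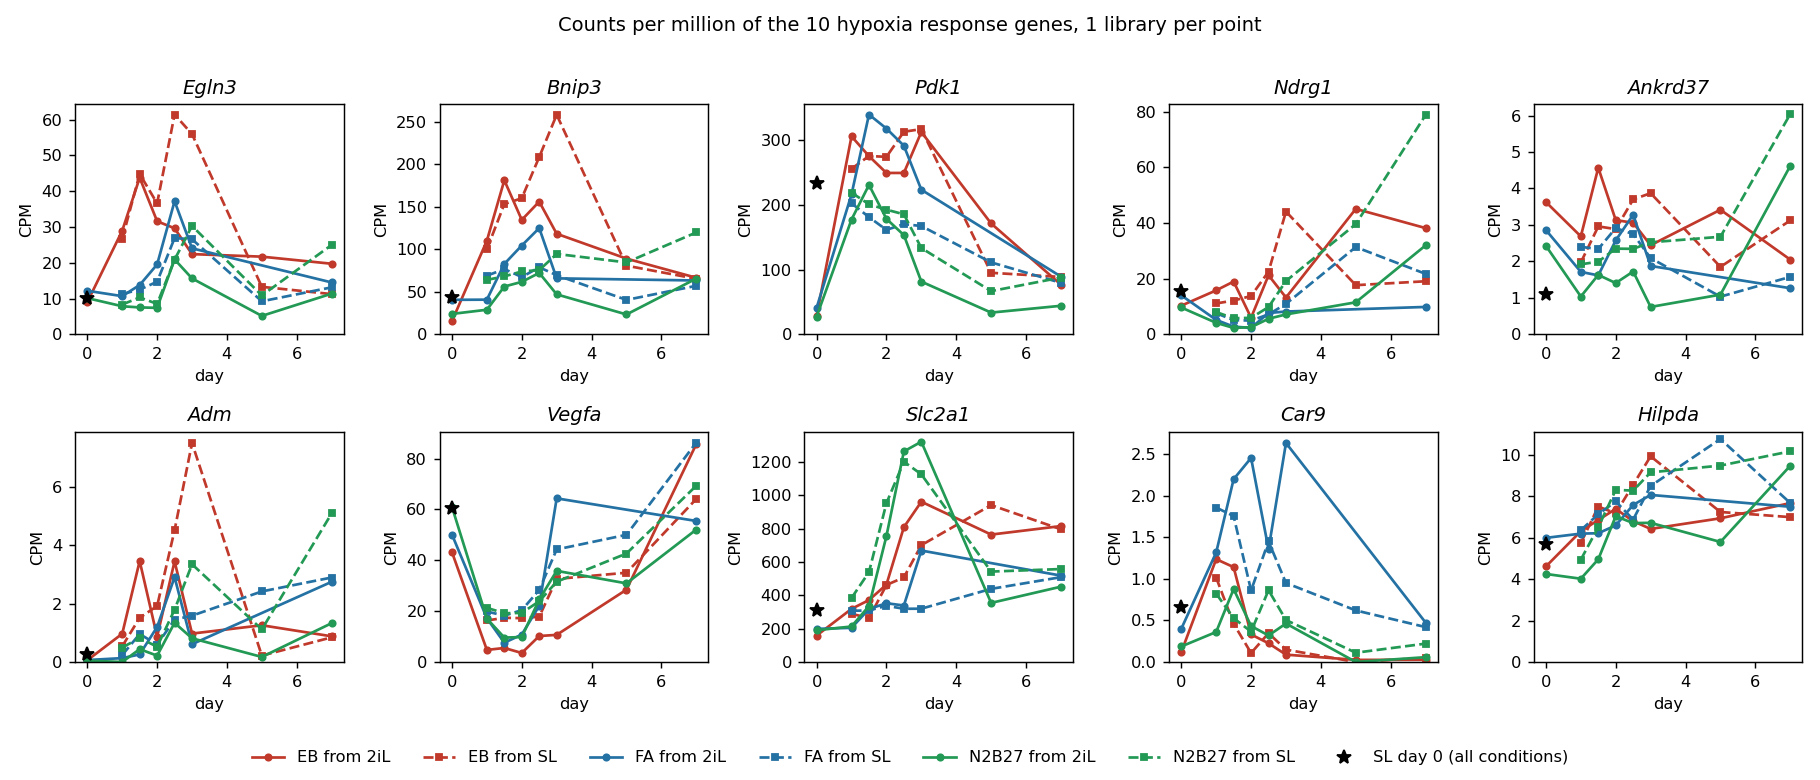
CPM of each of the 10 genes on the vertical axis, from 0, against the day of differentiation. Each point is 1 library, colours mark the condition, circles with solid lines the cultures from 2iL and squares with dashed lines those from SL, and the star is the SL library of day 0. EB values of Egln3 and Bnip3 stand above the adherent ones at days 1 to 2. Vegfa dips after day 0 in all cultures from 2iL and from SL. Slc2a1 is highest in N2B27 at days 2.5 and 3 but in EBs at days 5 and 7.

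Slc2a1, the glucose transporter Glut1, had the highest level per length of the 10 genes, with a median of 129 CPM per kb of exon over the 45 libraries. The annotation has Slc2a1 (ENSMUSG00000028645) on chromosome 4 from 119108711 to 119137983 (plus strand). It did not follow the early pattern of Egln3 and Bnip3. During days 1 to 2 EBs were at 263 to 464 CPM, FA cultures at 205 to 352 CPM and N2B27 cultures at 213 to 952 CPM, and the difference was -0.11 ± 0.11 (adjusted p = 0.52). During days 2.5 and 3 the conditions were ordered. N2B27 was at 1262 and 1320.4 CPM from 2iL and at 1201 and 1125 CPM from SL, EBs were at 808 and 961 CPM from 2iL and at 507 and 700 CPM from SL, and FA was at 339 and 668 CPM from 2iL and at 319 and 320 CPM from SL. EBs lay between FA and N2B27 in all 4 pairs of medium and day. The mean of the adherent cultures hides this order, since the difference from that mean was -0.01 ± 0.14. Taken against each adherent culture alone, 25.3%, 29.3% and 19.3% of all genes were called from FA in the 3 windows, and 31.3%, 38.9% and 46.3% from N2B27, while 2.28%, 14.8% and 33.1% were called between FA and N2B27. Against FA the Slc2a1 difference was 0.85 and against N2B27 it was -0.87 (adjusted p = 0.00078 and 0.00038), and FA was below N2B27 by a log2 difference of -1.72 (adjusted p = 4.7e-06).

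On days 5 and 7 Slc2a1 was at 764 and 815 CPM in EBs from 2iL and at 940 and 796 CPM in EBs from SL. The 7 adherent libraries were at 354 to 557 CPM, so that all 4 EB libraries were above them, an order that 4.31% of the genes tested showed. The difference was 0.80 ± 0.15, or 1.74-fold (adjusted p = 0.00048). It was called on both days, at 0.96 on day 5 and 0.64 on day 7 (adjusted p = 0.0044 and 0.027), and against each adherent culture, at 0.87 from FA and 0.73 from N2B27 (adjusted p = 0.0044 and 0.0013).

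Car9 is a carbonic anhydrase at the cell surface that regulates pH outside the cell, and it was the lowest of the 10 genes per length, with a median of 0.200 CPM per kb. The annotation has Car9 (ENSMUSG00000028463) on chromosome 4 from 43506966 to 43513729 (plus strand). Its counts were between 0 and 52 per library, so each value has a large counting error. At days 1 to 2 the 6 EB libraries were at 0.108 to 1.24 CPM (4 to 41 reads), FA at 0.861 to 2.46 CPM and N2B27 at 0.361 to 0.878 CPM. The difference was -0.76 ± 0.28 (adjusted p = 0.043). The call was lost in 11 of the 12 alternatives tried, with DESeq2 among them (adjusted p = 0.065). The difference was -1.51 against FA and -0.01 against N2B27, and FA was above N2B27 by 1.51 (adjusted p = 0.0016 for EB against FA and 0.024 for FA against N2B27).

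At days 2.5 and 3 Car9 was at 0.225 and 0.0884 CPM in EBs from 2iL and at 0.347 and 0.149 CPM in those from SL. FA was at 0.951 to 2.64 CPM and N2B27 at 0.319 to 0.864 CPM. EBs were the lowest in all 4 pairs of medium and day, and the difference was -2.41 ± 0.41 (adjusted p = 0.00020). It was -3.15 against FA and -1.66 against N2B27 (adjusted p = 5.1e-05 and 0.011). At days 5 and 7 the 4 EB libraries held 3 reads in all, against 26 reads in the 3 FA libraries and 6 reads in the 4 N2B27 libraries. Pooled, the FA level was 19.1 times that of EBs (95% exact interval, 5.87 to 98.8, counting error only), and the N2B27 level was 3.5 times that of EBs (0.747 to 21.6). The fitted difference in that window, -2.65 ± 0.75 (adjusted p = 0.011), rests on these few reads. Without the SL EB time course it was -0.83 and not called (adjusted p = 0.93), and without SL FA or SL N2B27 it was not called either.

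Vegfa and Adm encode secreted ligands, the first a growth factor for endothelial cells and the second a peptide that acts on vessels. The annotation has Vegfa (ENSMUSG00000023951) on chromosome 17 from 46016993 to 46032369 (minus strand) and Adm (ENSMUSG00000030790) on chromosome 7 from 110627661 to 110629820 (plus strand). Vegfa was lower in EBs than in either adherent culture in all 6 pairs of medium and day at days 1 to 2. EBs from 2iL were at 4.74, 5.51 and 3.54 CPM at days 1, 1.5 and 2, against 7.57 to 17.2 CPM in adherent cultures from 2iL. EBs from SL were at 16.3, 17.4 and 17.2 CPM, against 18.2 to 21.3 CPM in adherent cultures from SL. The difference was -0.74 ± 0.24 (adjusted p = 0.024), and it was -1.38 without the SL EB time course and -0.26 without the 2iL EB time course (adjusted p = 1.9e-06 and 0.056). It was called in 5 of the 12 alternatives.

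Over days 2.5 and 3 Vegfa was at 10.2 and 10.7 CPM in EBs from 2iL and at 17.8 and 32.7 CPM in EBs from SL. The 8 adherent libraries were at 22.1 to 64.3 CPM, and EBs were the lowest in 3 of 4 pairs of medium and day. The difference was -1.04 ± 0.29 (adjusted p = 0.0090), and it was -1.77 without the SL EB time course and -0.43 without the 2iL EB time course. At day 7 the levels were 85.7 CPM in EBs from 2iL, 64.1 CPM in EBs from SL and 52.1 to 86.3 CPM in adherent cultures. Over days 5 and 7 the difference was -0.12 ± 0.29 (adjusted p = 0.78).

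Adm was scarce at the outset. It had 2, 1 and 1 reads in the day 0 libraries from 2iL, which is under the limit of 3 counts in each, and 5 reads in the library from SL. At days 1, 1.5 and 2 it was at 0.966, 3.45 and 0.866 CPM in EBs from 2iL and at 0.538, 1.51 and 1.92 CPM in EBs from SL. The adherent libraries were at 0 to 1.20 CPM. EBs were the highest in 5 of 6 pairs of medium and day, the exception being day 2 from 2iL, where FA reached 1.20 CPM. The difference was 1.73 ± 0.49 (adjusted p = 0.012). It was 2.57 without the SL EB time course and 0.99 without the 2iL EB time course (adjusted p = 0.0022 and 0.15). It was called in 8 of the 12 alternatives.

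At days 2.5 and 3 Adm was highest in EBs in all 4 pairs of medium and day. EBs from SL had 4.51 and 7.49 CPM and those from 2iL 3.45 and 0.972 CPM, against 0.608 to 3.34 CPM in adherent cultures, a difference of 1.06 ± 0.50 (adjusted p = 0.10). By days 5 and 7 EBs were the lowest in 3 of 4 pairs, with 0.218 to 1.26 CPM against 0.172 to 5.08 CPM in adherent cultures. The difference of that window was -1.26 ± 0.66 (adjusted p = 0.15). It was -2.61 without the 2iL EB time course and -2.57 without 2iL N2B27, both called, and 0.48 without the SL EB time course.

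Ankrd37, Ndrg1 and Hilpda are further Hif targets, with Ankrd37 (ENSMUSG00000050914) on chromosome 8 from 45996902 to 46005707 (minus strand), Ndrg1 (ENSMUSG00000005125) on chromosome 15 from 66929318 to 66969640 (minus strand) and Hilpda (ENSMUSG00000043421) on chromosome 6 from 29272488 to 29275446 (plus strand). Ankrd37 is a small ankyrin repeat protein, Ndrg1 is a stress-responsive protein that is raised in many cells at low oxygen, and Hilpda blocks the lipase Atgl and so preserves lipid droplets. At days 1, 1.5 and 2 Ndrg1 was at 15.8, 19.0 and 5.99 CPM in EBs from 2iL and at 11.1, 12.2 and 13.8 CPM in EBs from SL. Adherent libraries were at 2.32 to 8.01 CPM, so that only EBs from 2iL at day 2 fell into their range. EBs were the highest in all 6 pairs of medium and day, and the difference was 1.49 ± 0.31 (adjusted p = 0.0013).

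Ndrg1 was also highest in EBs in all 4 pairs of medium and day at days 2.5 and 3, at 21.3 and 13.3 CPM from 2iL and 22.5 and 44.1 CPM from SL, against 5.62 to 19.2 CPM. The difference was 1.29 ± 0.36 (adjusted p = 0.0084), and without SL FA it was 1.11 and not called (adjusted p = 0.093). The media went apart at days 5 and 7. EBs from 2iL were at 45.1 and 38.2 CPM, above the 9.86 to 32.0 CPM of adherent cultures from 2iL, while EBs from SL were at 17.7 and 19.1 CPM, below the 21.8 to 78.8 CPM of adherent cultures from SL. The difference over both media was 0.13 ± 0.43 (adjusted p = 0.86), and it was 1.57 without the SL EB time course and -1.13 without the 2iL EB time course (adjusted p = 6.9e-05 and 0.00063).

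Ankrd37 was at 2.69, 4.57 and 3.13 CPM in EBs from 2iL at days 1, 1.5 and 2 and at 1.97, 2.96 and 2.89 CPM in EBs from SL, against 1.04 to 2.91 CPM in adherent libraries. The groups overlapped, and the difference was 0.61 ± 0.21 (adjusted p = 0.032). It was called in 6 of the 12 alternatives, and without the 2iL EB time course it was 0.11 and not called (adjusted p = 0.76). In the later windows it was 0.56 ± 0.25 and 0.37 ± 0.29 (adjusted p = 0.092 and 0.36). Ankrd37 overlaps Ufsp2 and Lrp2bp on the opposite strand, and the counts were made by strand.

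Hilpda was the steadiest of the 10 genes, with 4.02 to 10.8 CPM over all 45 libraries. The difference was 0.10 ± 0.09 at days 1 to 2, -0.06 ± 0.11 at days 2.5 and 3 and -0.30 ± 0.12 at days 5 and 7 (adjusted p = 0.42, 0.72 and 0.063). The 95% interval at days 1 to 2, -0.09 to 0.30, does not reach a difference of the size found for Egln3.

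**Figure D3:**
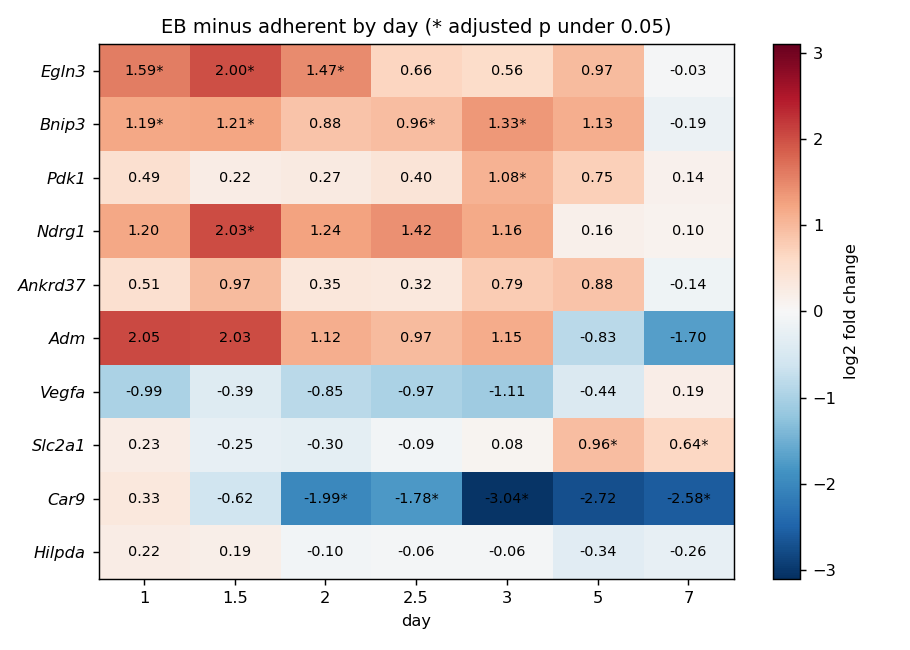
Log2 difference of EB from the mean of FA and N2B27 for the 10 genes (rows) on each day from 1 to 7 (columns), with red for higher in EB, blue for lower and a star where the adjusted p was under 0.05. Egln3 carries a star on days 1, 1.5 and 2, Bnip3 on days 1, 1.5, 2.5 and 3, Car9 on days 2, 2.5, 3 and 7, Slc2a1 on days 5 and 7, Ndrg1 on day 1.5 and Pdk1 on day 3.

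The change of the EB difference over time was tested as a contrast of its own, days 5 and 7 minus days 1 to 2, in which 19.6% of all genes were called. Of the 10 genes, 3 were called. Slc2a1 changed by 0.90 ± 0.19 (adjusted p = 0.0026), Egln3 by -1.22 ± 0.35 (adjusted p = 0.021) and Adm by -2.99 ± 0.84 (adjusted p = 0.018). With each time course left out in turn, an alternative added after seeing the data, the Slc2a1 change was called each time. The Egln3 change was -0.33 without SL EB (adjusted p = 0.48) and was also not called without 2iL FA, SL FA or SL N2B27. The Adm change was not called without SL EB, where it was -2.09 (adjusted p = 0.18), nor without 2iL FA or SL FA. For Bnip3, which was called in both early windows and not in the last, the change was -0.62 ± 0.32 and was not called (adjusted p = 0.19), though it was without 2iL EB, as was that of Ndrg1. The change of Vegfa, 0.62 in the fit of all time courses and not called, was 1.55 without SL EB (adjusted p = 4.7e-05).

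The EB difference was also compared between the starting media, 2iL minus SL, as 1 shift shared by all days. Each medium has 1 EB time course, so days stand in for replicates. The p-values of this contrast therefore cannot tell an effect of the medium from one of the culture. None of the 10 genes was called by edgeR, where 9.23% of all genes were, and Ndrg1 at 1.06 ± 0.36 and Vegfa at -0.68 ± 0.25 had the smallest p-values (adjusted p = 0.062 and 0.095; unadjusted, 2 of 10 were under 0.05). DESeq2 called 1 of them, Ndrg1. The 2 alternatives of this contrast called 1300 and 1807 of all genes.

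When each time course was reduced to 1 mean per window, so that 2 EB means were compared with 4 adherent means in limma with starting medium as a term, fewer genes were called. Over days 1 to 2 these were Egln3, Bnip3 and Ndrg1 (adjusted p = 0.0086, 0.017 and 0.034), at days 2.5 and 3 Bnip3, Car9 and Ndrg1 (0.031, 0.029 and 0.021), and at days 5 and 7 Slc2a1 (0.036). Of all genes, 11.5%, 16.8% and 7.31% were called in the 3 windows of this fit. An exact permutation test, two-sided, of the mean log2 level over days 1 to 3 and 7 has 15 arrangements of 2 EB and 4 adherent time courses, so it cannot give a p below 0.0667. Bnip3 and Egln3 reached this smallest value. Both EB time courses were above all 4 adherent ones for Bnip3, Egln3, Ndrg1, Adm and Ankrd37 and below all 4 for Car9. The share of all genes with such an order was not computed. Nor was the share computed for the order of the 3 conditions within pairs of medium and day, so these orders describe single genes only. The exact permutation p was 0.133 for Ndrg1, Adm, Ankrd37 and Car9, 0.200 for Vegfa, and higher for the other 3, without adjustment for the 10 tests.

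The 10 genes belong to a wider group of Hif targets, which were grouped in lists chosen with earlier results of these data known. Of 12 glycolytic targets, 11 were called higher in EBs at days 1 to 2 and 1 was not called, 11 were called higher and 1 lower at days 2.5 and 3, and 7 were called higher and 5 not called at days 5 and 7. Their median differences were 0.60, 0.47 and 0.37. Among all genes tested, 18.5%, 19.3% and 17.0% were called higher in these 3 windows. Ldha, which turns pyruvate into lactate, differed most, by 1.65 ± 0.18, 0.85 ± 0.21 and 0.99 ± 0.24 in the 3 windows (adjusted p = 2.6e-06, 0.0044 and 0.0039). At days 1 to 2 it was followed by Tpi1 at 0.95 ± 0.11 and Pfkl at 0.94 ± 0.10 (adjusted p = 6.0e-06 and 2.6e-06). In the later windows it was followed by Pfkp at 0.70 ± 0.18 and 0.90 ± 0.20 and by Pfkl at 0.68 ± 0.12 and 0.47 ± 0.14. Slc2a3, the glucose transporter Glut3, was the exception, at -0.43 ± 0.16 at days 2.5 and 3 (adjusted p = 0.042). Over the 12 alternatives tried, between 6 and 11 of the list were called higher at days 1 to 2, between 2 and 11 at days 2.5 and 3 and between 0 and 12 at days 5 and 7. In the last window 0 were called with 1 value per time course and without 2iL N2B27, and 12 without SL EB. Gapdh, Pgk1 and other glycolytic genes have near-identical copies elsewhere in the genome, and their counts are uncertain to that extent.

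Of 30 other Hif targets, 8 were called higher and the other 22 were not called at days 1 to 2, 11 higher, 2 lower and 17 neither at days 2.5 and 3, and 6 higher, 8 lower and 16 neither at days 5 and 7. The share called at days 1 to 2 was thus below the 33.8% of all genes, although all 8 were higher. Over the 12 alternatives, 2 to 15 were called higher and 0 to 3 lower at days 1 to 2, 7 to 14 higher and 0 to 6 lower at days 2.5 and 3, and 0 to 17 higher and 3 to 13 lower at days 5 and 7. The median difference of the list in the last window was 0.47 without SL EB and -0.29 without 2iL EB. During days 1 to 2 the largest rises were those of Ndufa4l2, a mitochondrial protein, at 2.38 ± 0.42, of Cited2, which competes with Hif for its coactivators, at 1.10 ± 0.07, and of Slc16a3, a lactate exporter, at 0.90 ± 0.19 (adjusted p = 0.00029, 1.0e-08 and 0.0014). On days 2.5 and 3 they were Ndufa4l2 at 2.25 ± 0.45, the Vegf family ligand Pgf at 1.26 ± 0.42 and the glycolytic regulator Pfkfb3 at 1.0 ± 0.22. P4ha1, a collagen prolyl hydroxylase, was lower at -0.77 ± 0.17.

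By days 5 and 7 Pgf, Slc16a3 and the lipoprotein receptor Vldlr were higher in EBs, at 1.30 ± 0.44, 0.95 ± 0.26 and 0.80 ± 0.28. Among the genes called lower were the collagen crosslinker Lox at -2.60 ± 0.72 and the lysyl hydroxylase Plod2 at -1.25 ± 0.22 (adjusted p = 0.011 and 0.00043).

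**Figure D4:**
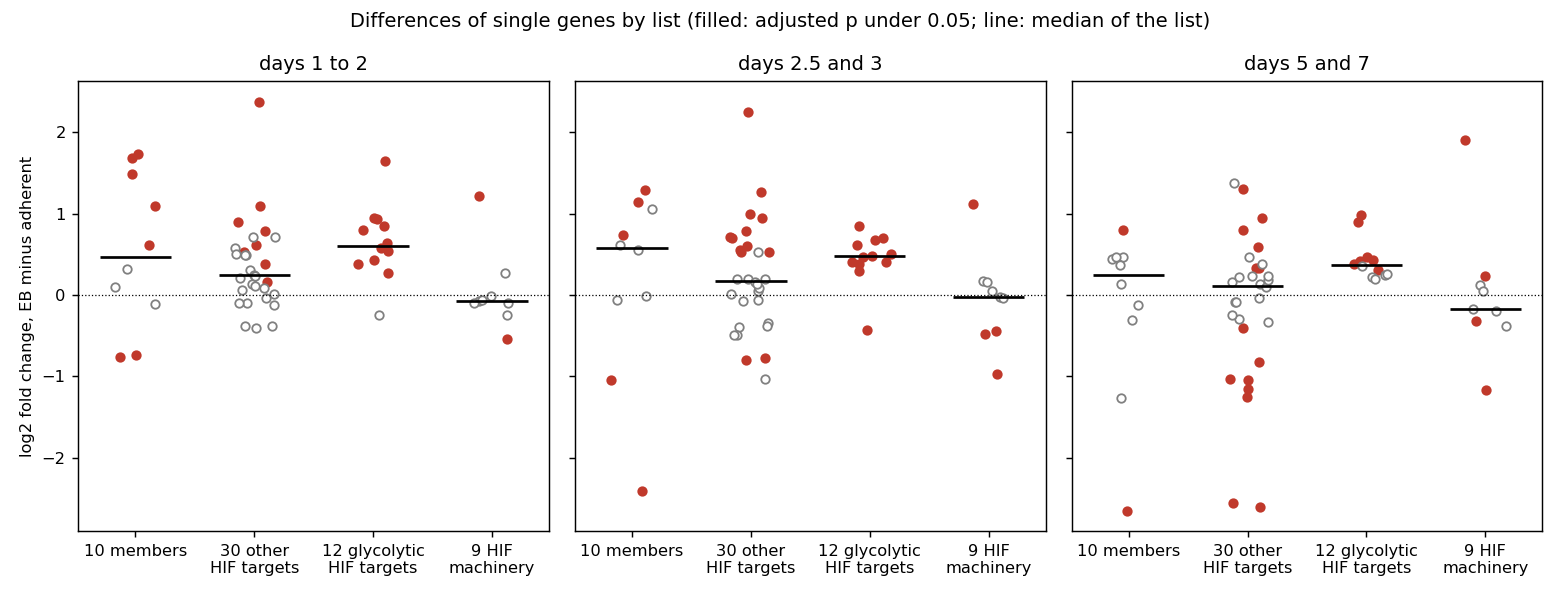
Log2 difference of EB from the adherent cultures for single genes, grouped as the 10 genes described here, 30 other Hif targets, 12 glycolytic Hif targets and 9 genes of the Hif machinery, in 3 windows of days. Each point is 1 gene, filled where the adjusted p was under 0.05, with sideways scatter for legibility only, and the line is the median of the list. The glycolytic list lies almost wholly above 0 in each window, while the other lists spread to both sides.

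Of the 9 genes of the Hif machinery, Hif1a, the best known alpha subunit, was not called in any window, at -0.07, -0.02 and 0.12. Hif3a, an alpha subunit whose short forms restrain the others and which is itself a Hif target, was higher in EBs in all 3 windows, at 1.21 ± 0.15, 1.11 ± 0.18 and 1.90 ± 0.20 (adjusted p = 9.5e-06 at days 1 to 2). Vhl was lower in all 3, at -0.54 ± 0.07, -0.44 and -0.32. Epas1, the alpha subunit Hif2a, was not called at days 1 to 2, at 0.27, and was lower later, at -0.97 and -1.16. Arnt2 was lower at days 2.5 and 3 at -0.48, Arnt was higher at days 5 and 7 at 0.23, and Egln1, Egln2 and Hif1an were not called in any window. These are RNA levels, and the Hif alpha subunits are regulated mainly as proteins, which were not measured here. Of the 9 genes, 2, 4 and 4 were called in the 3 windows, where 33.8%, 38.7% and 34.3% of all genes were. Over the 12 alternatives, 1 was called higher and 1 to 2 lower at days 1 to 2. The ranges were 1 to 2 and 1 to 3 at days 2.5 and 3, and 1 to 3 and 1 to 5 at days 5 and 7. With 1 value per time course, 1 was called higher and 1 lower in each window.

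Among 7 receptors and partners for Vegfa and Adm, Flt1 was called higher at days 1 to 2 at 1.22 ± 0.38, Kdr and Calcrl lower at days 2.5 and 3 at -2.13 and -1.27, and Kdr and Nrp2 higher at days 5 and 7 at 2.40 and 0.78. These 4 were named after their values were seen, and Kdr also marks mesoderm and endothelium. Of all genes, 33.8%, 38.7% and 34.3% were called in the 3 windows.

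Markers of other cell types and of other responses were counted in the same way. Among all genes tested, 18.5%, 19.3% and 17.0% were called higher in the 3 windows, and 15.2%, 19.4% and 17.3% lower. Of 8 markers of mesoderm, endothelium and blood, 5 were called higher in EBs at days 5 and 7, when their summed level was 68.0 to 627 CPM in EBs, 15.2 to 31.5 CPM in FA and 16.9 to 35.2 CPM in N2B27, with none of the 8 at 0 in all EB libraries and 1 of them at 0 in all N2B27 libraries. All 8 neural markers were called lower in that window, with sums of 108 to 282 CPM in EBs, 188 to 506 CPM in FA and 418 to 786 CPM in N2B27. At days 1 to 2, 4 of 10 endoderm markers were called higher and 1 lower, with overlapping sums of 13.2 to 1995 CPM in EBs, 13.6 to 893 CPM in FA and 17.7 to 988 CPM in N2B27, and 0 of 6 pluripotency markers were called by edgeR, 1 by DESeq2, and 1 had an unadjusted edgeR p under 0.05. Of 11 serum response genes, 1 was called higher and 1 lower at days 1 to 2, a smaller share than the 33.8% of all genes, 1 higher and 5 lower at days 2.5 and 3, and 5 lower at days 5 and 7. Of 8 genes of amino acid and endoplasmic reticulum stress, 1 was called higher and 5 lower at days 1 to 2, 7 lower at days 2.5 and 3, and 2 higher and 3 lower at days 5 and 7. Mesoderm, endothelium and blood markers were called 1 higher and 1 lower at days 1 to 2. They were called 1 higher and 4 lower at days 2.5 and 3. Neural markers were called lower in these windows too, 3 and 2 of 8. Endoderm markers were called higher in both later windows, 2 and 3 of 10, with 0 lower. Pluripotency markers had 2 called higher at days 2.5 and 3, and 2 higher and 2 lower at days 5 and 7. The part of cell composition, serum or stress in the differences of the Hif targets was not tested.

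Within 2iL, days were also compared with day 0, with the 3 conditions as replicates. Over days 1 to 2, 45.4% of the 16306 genes tested were called, and of the 10 genes 5 were higher and 2 lower than at day 0. Pdk1 was higher by 2.97 ± 0.32, Car9 by 2.31 ± 0.65, Bnip3 by 1.49 ± 0.36 and Slc2a1 by 0.93 ± 0.32 (adjusted p = 2.0e-06, 0.0083, 0.0031 and 0.024). Adm was higher as well, by 3.51 ± 1.06 in the fit (adjusted p = 0.013). With reads pooled, its CPM was 18.6 times that of day 0 (95% exact interval, 7.15 to 68.8, counting error only), from 4 reads at day 0. This pool is weighted by depth, and so towards EBs. In 2iL cultures of days 1 to 2, Adm was at 0.866 to 3.45 CPM in EBs and at 0 to 1.20 CPM in adherent libraries. Vegfa was lower by a log2 difference of -2.57 ± 0.34 and Ndrg1 by -1.25 ± 0.39 (adjusted p = 1.6e-05 and 0.016). Vegfa was lower than at day 0 in all 9 libraries, at 3.54 to 17.2 CPM against 43.2 to 61.0 CPM. In cultures from SL, Vegfa was at 16.3 to 21.3 CPM over days 1 to 2, against 60.6 CPM in the single day 0 library. Ndrg1 was lower in the 6 adherent libraries from 2iL, at 2.32 to 5.21 CPM against at least 9.66 CPM in both adherent conditions at day 0. In EBs from 2iL, Ndrg1 was at 5.99 to 19.0 CPM against 10.3 CPM. Egln3 was not called, at 0.58 ± 0.36 (adjusted p = 0.21), and without the EB condition its value was -0.05.

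At days 5 and 7, 64.7% of all genes were called against day 0, and 5 of the 10 genes were higher. They were Slc2a1 at 1.46 ± 0.35, Pdk1 at 1.22 ± 0.31, Bnip3 at 0.93 ± 0.38, Hilpda at 0.51 ± 0.18 and Adm (adjusted p = 0.0018, 0.0027, 0.040, 0.024 and 0.0034). Vegfa, which was low at days 1 to 2, was not called, at -0.14 ± 0.40 (adjusted p = 0.78). This mean joins unlike days. At day 5 Vegfa was at 28.4 CPM in EBs and 30.9 CPM in N2B27, under the 43.2 to 61.0 CPM of day 0. At day 7 it was at 52.1 to 85.7 CPM. Without the EB condition 2 of the 10 genes were called, and without N2B27 3 were. Over the 6 alternatives of this comparison, 8618 to 10784 of all genes and 2 to 5 of the 10 were called.

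At day 0, the 3 libraries from 2iL were compared with the single library from SL, where 30.8% of the 14948 genes tested were called and Adm did not pass the filter. The errors and p-values come from the spread of the 3 libraries from 2iL, and the SL library is assumed to vary like them, so they do not measure the spread between SL cultures. Pdk1 was lower in 2iL by -2.80 ± 0.20 and Slc2a1 by -0.70 ± 0.18 (adjusted p = 4.2e-05 and 0.019). Slc2a1 was at 158, 198 and 190 CPM in 2iL and at 309 CPM in SL. Ankrd37 was higher in 2iL by 1.5 ± 0.47 (adjusted p = 0.039), at 3.63, 2.86 and 2.43 CPM against 1.10 CPM. With the spread estimated over all 45 libraries Slc2a1 was not called (adjusted p = 0.0503).

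Per length of exon, the median levels over the 45 libraries were ordered as Slc2a1 (129 CPM per kb), Bnip3 (31.9), Pdk1 (23.2), Hilpda (6.34), Vegfa (5.57), Egln3 (5.52), Ndrg1 (1.66), Ankrd37 (1.56), Adm (0.592) and Car9 (0.200). The ranges over libraries overlapped between every pair of neighbours in this order.

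Across the 45 libraries, which share 6 time courses, the 10 genes did not move as 1 block. Of their 45 pairs, 12 had a Pearson r over 0.5 and 11 an r under 0 on log2 CPM, with a median of 0.26. Bnip3 and Egln3 were the most alike at 0.82, and Vegfa and Pdk1 the most opposed at -0.66. With the mean z score of all 10 genes, in which each takes part, Adm had an r of 0.91, Bnip3 0.85, Egln3 0.81 and Hilpda 0.79, whereas Vegfa had 0.01 and Car9 0.05. Outside the lists, the genes most alike to this mean were 1110007C09Rik (r = 0.82), Pgk1-rs7 (0.81), Ier3 (0.79), Lrrc16a (0.79) and 2010204K13Rik (0.76). Pgk1-rs7 is a near copy of Pgk1, so its reads may be those of Pgk1. These correlations are descriptions over libraries that share cultures and depth.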

How the data were processed

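Strand-specific RNA-seq of 45 libraries was used. The authors trimmed reads with TrimGalore, mapped them with TopHat2 to GRCm38, used featureCounts to count reads on the exons of each gene by strand, and deposited the raw counts. Versions are not given in the sources used here. From the counts, CPM, TMM factors and all fits were computed here (R 4.3.3, edgeR 4.0.16, limma 3.58.1, DESeq2 1.42.0, Python 3.11.15). The main model had starting medium by day as a block and condition by day, after filterByExpr, in 41 libraries, without day 0. FA at day 5 rests on SL alone. Gene positions and exon lengths were found for 34599 of 35372 genes in a GENCODE annotation of GRCm38, and promoter sequences come from RefSeq. Levels on a log2 scale carry a pseudocount of 0.1 CPM.

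The members and lists were chosen with earlier results of these data known. Named genes were all 10 members, the Hif machinery, the 3 largest rises and falls per window among called genes of both target lists, and the 5 genes outside the lists most correlated with the members. Receptors were named after their values were seen. The values of 1 gene that this rule names are not reported here. Alternatives were DESeq2, library totals, no filter, other models and each time course left out. The models were also run on simulated counts, drawn independently for each library. Such counts cannot check the p-values where libraries of a time course share a culture.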

Additional observations from a re-analysis of the deposited data

Results flagged for a closer look

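For 3 of the 10 genes the EB difference itself changed between days 1 to 2 and days 5 and 7, by the test of that change in edgeR. For Slc2a1 it changed by 0.90 ± 0.19 (adjusted p = 0.0026), from -0.11 to 0.80. For Egln3 it changed by -1.22 ± 0.35 (adjusted p = 0.021), from 1.69 to 0.47. For Adm it changed by -2.99 ± 0.84 (adjusted p = 0.018), from 1.73 to -1.26. DESeq2 and library totals, both added after seeing the data, also called these 3 genes and no other of the 10. They called 21.1% and 18% of all genes. With each time course left out in turn, also added after seeing the data, the change of Slc2a1 was called each time, at 0.78 to 1.13. That of Egln3 was -0.33 without SL EB (adjusted p = 0.48), where its difference at days 5 and 7 was 1.34, and it was not called without 2iL FA, SL FA or SL N2B27 either. That of Adm was not called without SL EB, 2iL FA or SL FA.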

How the results depend on the processing

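Of the values of single genes under the alternatives, 470 kept their direction and their side of the threshold, 65 were no longer called, 24 became called and 30 changed sign, and of the counts and permutation values 97 stayed close and 31 moved. Egln3, Bnip3 and Ndrg1 at days 1 to 2, Bnip3 and Car9 at days 2.5 and 3 and Slc2a1 at days 5 and 7 were called in all 12 alternatives, while Car9 at days 1 to 2 was called in 1. With 1 value per time course, 1957, 2855 and 1238 of all genes were called in the 3 windows in place of 5721, 6552 and 5812, and 3, 3 and 1 of the 10 genes in place of 7, 5 and 2, with fewer independent values in the fit. Without the block of medium and day, 4 of the 10 genes and 23.3% of all genes were called at days 1 to 2, and Ndrg1 at days 5 and 7 was at -0.013. With library totals, Slc2a1 and Hilpda at days 2.5 and 3 were at 0.067 and 0.018. With DESeq2, 1 of the 10 genes was called for the EB effect of 2iL minus SL, in which Egln3 was at 0.0092. With each time course left out in turn, 3154 to 5829, 4086 to 6972 and 2136 to 5828 of all genes were called in the 3 windows, and 3 to 6, 3 to 7 and 2 to 6 of the 10 genes. The 6 genes of the last window were reached without 2iL EB and without SL EB. At days 1 to 2, Slc2a1 ranged from -0.44 to 0.17 and Hilpda from -0.038 to 0.21. At days 2.5 and 3, Slc2a1 ranged from -0.096 to 0.082 and Hilpda from -0.22 to 0.11. At days 5 and 7, Vegfa ranged from -0.41 to 0.16, Bnip3 from -0.029 to 1.19, Pdk1 from -0.024 to 1.07, Egln3 from -0.23 to 1.34, Ankrd37 from -0.036 to 0.99, Ndrg1 from -1.13 to 1.57 and Adm from -2.61 to 0.48. For the change of the EB difference, 774 to 4035 of all genes and 1 to 5 of the 10 were called with each time course left out, where Vegfa ranged from -0.15 to 1.55 and Pdk1 from -0.40 to 0.89. Against day 0 in 2iL, with each condition left out in turn, 4573 to 7159 of all genes and 4 to 5 of the 10 were called at days 1 to 2, where Egln3 ranged from -0.054 to 1.09. At days 5 and 7, 8618 to 10177 of all genes and 2 to 4 of the 10 were called, Egln3 ranged from -0.38 to 0.59 and Vegfa from -0.53 to 0.14. The causes of these changes were not tested. Without SL FA, the adherent value of day 5 rests on N2B27 alone. Depth limits Car9 and Adm, which had few reads in many libraries. Without replicate libraries of a condition and day, the main model takes its spread from how far condition differences of a day disagree between media. The labels give no replicate numbers to pair on, and the main model already compares the conditions within each medium and day.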
